A study of Homo sapiens with 17 samples.

Results

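Chromatin isolation by RNA purification (ChIRP) recovers the genomic DNA crosslinked near a chosen RNA with antisense probes, and the ChIRP map of the NC1235 arm of HCC1954 cells was described here. HCC1954 cells are a human breast cancer line with high levels of the receptor HER2. The map comprised every peak of the single ChIRP list that lay on chromosomes 1 to 22 or X, which was 128273 peaks of 128351 in that list, and of 917718 on those chromosomes in the 15 peak lists of the series. It was set against the 7 NC1235 lists of the histone variant H2A.Z (written H2AZ, as in the labels), H3K27ac, H3K36me3 and H3K9ac. No peak was left out for its strength or width.

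Long non-coding RNAs can stay at the site where they are made or act at distant chromatin, and a ChIRP map lists the places where the captured RNA was crosslinked, directly or through proteins. H2A.Z is deposited at promoters and enhancers, H3K27ac and H3K9ac mark active promoters and enhancers, and H3K36me3 is laid down over the bodies of transcribed genes behind RNA polymerase II. LINC01235, the long non-coding RNA named in the series title, is transcribed from the short arm of chromosome 9.

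The series held 17 samples of 1 cell line, all transfected with antisense oligonucleotides and fixed 72 h later. The groups used were ChIRP_NC1235 (1 library), Si1235 (2 libraries each of H2AZ, H3K27ac and H3K36me3, 1 of H3K9ac) and NC1235 (the same numbers). The labels give the ChIRP library the arm NC1235 in its title and the genotype ChIRP, and do not spell out NC or Si. The RNA captured by the probes and the probe sequences are not given in the sources used here, a control pull-down and the 2 input samples were not analysed here, and nothing in the labels says that replicates were separate cultures. With 1 ChIRP library, its peaks have no replicate check: intervals below are exact 95% intervals that cover counting error only, and no p-value is attached to the map itself.

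The H3K27ac lists were checked against markers of the labelled cell line. Both NC1235 H3K27ac libraries had a peak at the promoter window of ERBB2, the gene for HER2, and at all 5 luminal and epithelial markers with a promoter sequence in the table used (KRT8, CLDN3, CLDN4, CLDN7 and ELF3). They had one at 3 of 6 mesenchymal markers (FN1, ZEB1 and SPARC), 1 of 4 immune markers (CD8A) and 0 of 1 endothelial marker. The NC1235 mark lists held between 44836 and 71041 peaks. Read depths are not in the files. Solving the fold enrichment and −log10 p of each list's weakest peaks for the read numbers behind them gave a local background of 0.701 reads for ChIRP, against 0.808 to 1.55 for the NC1235 lists of H2AZ, H3K36me3 and H3K9ac. The H3K27ac lists of that arm could not be solved this way, with 0.0% of weak peaks solved. In both H3K27ac lists of Si1235, 100.0% were solved. The reason for this difference was not tested. Fold enrichment throughout is the peak caller's own value from the authors' deposited list, and it was used only to describe and rank peaks within the ChIRP list.

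Where ChIRP summits fell at promoters, some shared short words of sequence, and the 4 windows printed here show them. Of 30089 promoter windows of 300 bases (250 before to 50 after the annotated start, from RefSeq GRCh38.p14), 528 held a ChIRP summit. A search for words of 9 bases, counted on both strands, was made on the odd-numbered chromosomes and its best 6 words were then counted on the even-numbered chromosomes and X. Of these, 3 words stood at 6.44 to 13.3 times their share of all windows there, and they are in capitals below, in either orientation. The windows shown are those with the strongest ChIRP peaks for each word, a pair for AGCACACCC and then, for each of the others, the strongest not already shown, on the chromosomes considered. They run 5′ to 3′ along the gene's strand.
ZNF423, chr16:49664275-49664574, minus strand: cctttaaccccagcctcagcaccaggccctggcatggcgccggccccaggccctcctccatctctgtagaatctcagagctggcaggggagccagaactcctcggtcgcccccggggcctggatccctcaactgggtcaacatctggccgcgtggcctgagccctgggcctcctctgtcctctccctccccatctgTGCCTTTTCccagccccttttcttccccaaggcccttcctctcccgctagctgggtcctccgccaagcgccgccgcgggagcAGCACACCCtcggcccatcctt
SNORC, chr2:232868764-232869063, plus strand: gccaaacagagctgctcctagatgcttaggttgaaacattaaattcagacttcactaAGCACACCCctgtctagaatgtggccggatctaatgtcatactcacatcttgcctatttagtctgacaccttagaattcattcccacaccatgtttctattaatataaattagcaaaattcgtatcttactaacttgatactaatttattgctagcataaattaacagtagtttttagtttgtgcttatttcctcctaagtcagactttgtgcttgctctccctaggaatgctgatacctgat
LOC124904523, chr1:224762919-224763218, minus strand: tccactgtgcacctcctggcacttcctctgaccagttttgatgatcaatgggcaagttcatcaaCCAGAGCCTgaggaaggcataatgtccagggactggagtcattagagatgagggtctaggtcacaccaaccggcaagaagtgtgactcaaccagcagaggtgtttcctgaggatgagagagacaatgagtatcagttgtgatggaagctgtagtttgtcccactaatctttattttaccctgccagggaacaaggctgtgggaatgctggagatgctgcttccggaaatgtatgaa
LNCAROD, chr10:52455223-52455522, minus strand: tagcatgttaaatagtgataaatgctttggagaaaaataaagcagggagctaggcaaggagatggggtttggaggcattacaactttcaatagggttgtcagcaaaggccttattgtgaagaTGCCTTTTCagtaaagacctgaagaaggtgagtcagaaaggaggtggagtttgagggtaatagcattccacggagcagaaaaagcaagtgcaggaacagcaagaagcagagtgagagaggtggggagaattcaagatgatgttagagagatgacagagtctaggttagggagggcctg
The ZNF423 window, at a zinc finger transcription factor gene, carried TGCCTTTTC (the reverse complement of GAAAAGGCA) and AGCACACCC, and its peak of 591 bp had a fold enrichment of 62.7 with the nearest word 20 bp from the summit. In the SNORC window, at a gene for a cartilage proteoglycan, the summit lay within AGCACACCC, and the peak measured 1078 bp with a fold enrichment of 52.3. The uncharacterised RNA gene LOC124904523 carried CCAGAGCCT, the reverse complement of AGGCTCTGG, 47 bp from the summit of a peak with a fold enrichment of 86.2. LNCAROD, a long non-coding RNA gene, was the only one of the 4 whose window touched mark peaks, of H2AZ, H3K27ac and H3K9ac. Its word lay 155 bp from the summit.

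On the even-numbered chromosomes and X, AGCACACCC was in 7 of the 248 windows with a summit (2.82%, 1.14 to 5.73) and in 0.212% of all 13667 windows. AGGCTCTGG was in 16 of those 248 windows (6.45%, 3.73 to 10.3) and in 1.0% of all windows. GAAAAGGCA was in 14 of them (5.65%, 3.12 to 9.29) and in 0.593% of all windows. These shares with a summit lay above the shares over all windows by more than their counting intervals. The 3 words were kept because they stood at 5 times or more on these chromosomes, so the intervals give no separate support. The other 3 words chosen on the odd-numbered chromosomes were not more frequent at summits there: CCAGGATTC, GTGGGGTGA and CTTTCCCGC stood at 0, 0.81 and 0.735 times their share of all windows. Over all chromosomes, 76 of 528 windows with a summit (14.4%) held at least 1 of the 3 words, against 560 of all 30089 windows (1.86%). This takes in the odd-numbered chromosomes, on which the words were chosen for a high ratio, so the gap is no separate test. Most summits at promoters had none of the words. Also over all chromosomes, the median distance from word to summit was 37.5 bp for AGCACACCC, 45.5 bp for AGGCTCTGG and 54.0 bp for GAAAAGGCA. On the even-numbered chromosomes and X alone it was 57.5, 53.5 and 50.5 bp in the same order. Of the windows on all chromosomes that held a word, 13.6% held a summit. The words thus also occurred at many promoters without a ChIRP summit. These matches describe letters in the windows and show no binding site.

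Motifs that were listed with the design moved little. GAGAGAGA was in 4.36% (2.78 to 6.46) of windows with a summit and 3.52% of all windows, CACACACA in 4.17% (2.63 to 6.24) and 3.37%, TATATATA in 0.568% (0.117 to 1.65) and 0.598%, and TGACTCA, the site of AP-1 factors, in 6.44% (4.5 to 8.88) and 5.24%, each counted on both strands. In these 4 cases the counting interval took in the share over all windows. CCGCCC, the core of a GC box, was in 35.2% (31.2 to 39.5) of windows with a summit, below the 42.0% of all windows. Windows with a summit had a median GC content of 55.0%, and all windows one of 57.3%. Short as they are, the windows held the summits of 0.412% of ChIRP peaks, and 1.75% of windows held one. This was 58.5 summits per Mb of window, against 42.34 peaks per Mb of the genome. Windows with a ChIRP summit touched an H3K27ac peak in 32.2% of cases, against 36.3% of all windows, and an H2AZ peak in 37.1%, against 40.8%.

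ChIRP peaks were narrower than the mark peaks and far more even in width. Their median width was 378 bp, with quartiles at 259 and 508 bp, against medians of 611 and 678 bp for H2AZ, 956 and 1098 bp for H3K27ac, 688 and 832 bp for H3K36me3 and 724 bp for H3K9ac. Only 0.619% of ChIRP peaks were wider than 1000 bp, and in the mark lists between 29.1% and 53.0% were. The ChIRP peaks together covered 51.51 Mb, or 1.70% of the chromosomes.

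**Figure D1:**
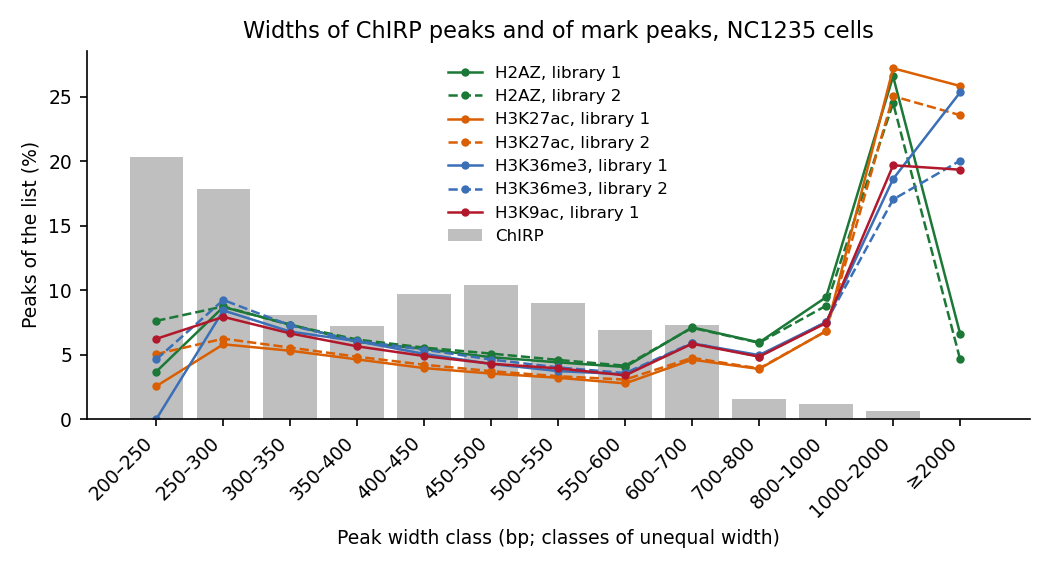
Share of the list's peaks (y axis, percent) in each width class (x axis, bp; classes of unequal width) for ChIRP as bars and for each NC1235 mark library as a line. ChIRP shares are highest below 300 bp, lower at 350 to 400 bp (7.18%) and higher again at 450 to 500 bp (10.4%), while the mark lists have their largest shares above 1000 bp.

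The ChIRP widths fell into a narrow and a wider class. Peaks of 200 to 250 bp made up 20.3% of the list and had a median fold enrichment of 6.56. The share dropped to 7.18% at 350 to 400 bp and was 10.4% at 450 to 500 bp, as the plot of width classes shows. Peaks of 600 to 700 bp had a median fold enrichment of 42.1, the highest of any class below 2000 bp. Median fold enrichment did not go up with width throughout: it was 9.99 at 300 to 350 bp and 8.97 at 350 to 400 bp, and beyond 700 bp it was 31.4, 24.1 at 800 to 1000 bp and 33.6 at 1000 to 2000 bp. All peaks wider than 2000 bp numbered 6.

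The widest of those 6 peaks lay on chromosome X at chrX:30788510-30806972, measured 18463 bp and had a fold enrichment of 187.1, with no gene and no mark peak on it. The next, at chr20:61272438-61275946, measured 3509 bp and lay in CDH4, which codes for R-cadherin. The peak with rank 3 in width was on LINC01235 itself. The strongest peak of the whole list was elsewhere, at chr22:28830830-28831833, with a fold enrichment of 230.64 over 1004 bp, again with no gene and no mark peak on it.

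The LINC01235 gene (hg38, chr9:13406380-13431329, a lncRNA gene) held 3 ChIRP peaks. The one over its end at the lower coordinate, chr9:13406057-13408719, measured 2663 bp and had a fold enrichment of 168.54, which had rank 5 in the list. A peak of 716 bp at chr9:13416083-13416798 had a fold enrichment of 66.3, and one of 320 bp at chr9:13426955-13427274 had 9.08. Only the last of these, the weakest, overlapped a mark peak, of H3K9ac. The counting interval on the density over the gene, 0.12 midpoints per kb, ran widely from 0.0248 to 0.351.

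Outside the gene, a peak at chr9:13432103-13433101, 774 bp beyond its end, had a fold enrichment of 89.8, and one at chr9:13458712-13460092 in LOC105375977 had 84.7. The peak ranked second in the whole list, with 213.99, lay at chr9:13487633-13488431, 56304 bp from the gene. It overlapped peaks of H2AZ and H3K27ac in both libraries and of H3K9ac, and was the only one of the 5 strongest ChIRP peaks that overlapped a mark peak.

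**Figure D2:**
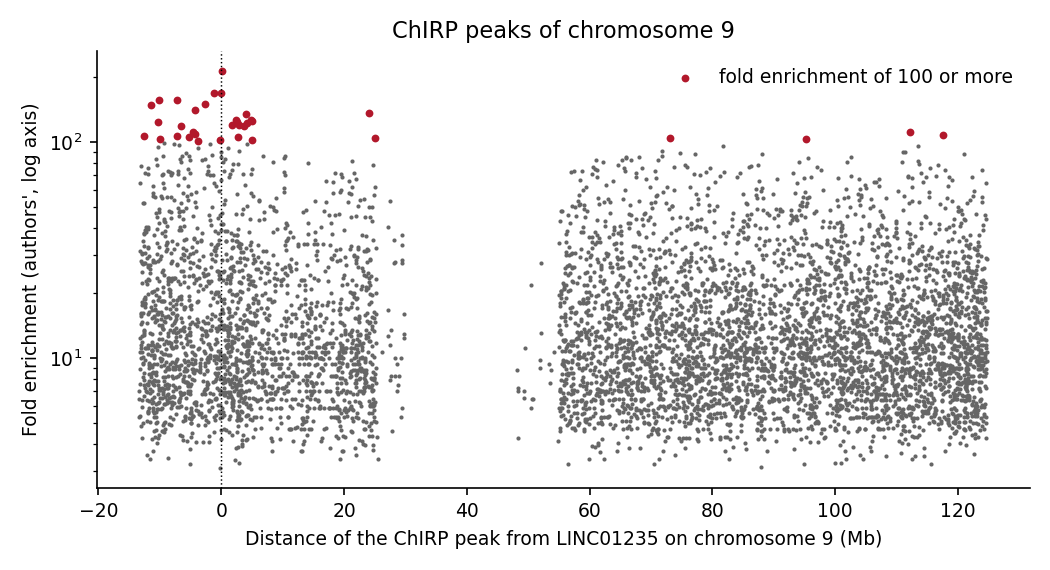
Fold enrichment of each ChIRP peak of chromosome 9 (y axis, the authors' values on a log axis) against its distance from LINC01235 (x axis, Mb; dotted line at the gene), with peaks of 100 or more in red. Red points number 1 in the gene (168.54), 1 within 100 kb (213.99, 56304 bp away) and 1 from 100 kb to 1 Mb. A further 16 lie at 1 to 5 Mb, 6 at 5 to 10 Mb and 10 over 10 Mb away.

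Strong peaks were concentrated over a wide stretch around the gene, without a steady fall with distance. From 100 kb to 1 Mb away, 1 of 127 ChIRP peaks (0.787%) had a fold enrichment of 100 or more, and 6.30% had 50 or more, against 9.09% at 1 to 5 Mb. Between 1 and 5 Mb from LINC01235, 16 of 506 ChIRP peaks (3.16%) had a fold enrichment of 100 or more. Between 5 and 10 Mb the share was 1.115%, over 10 Mb away on chromosome 9 it was 0.193%, and on the other chromosomes it was 0.170%, or 207 of 121908 peaks. The number of peaks per Mb changed less, from 63.25 at 1 to 5 Mb to 43.78 over 10 Mb away on chromosome 9 and 42.16 on the other chromosomes, with the near-empty stretch around the centromere counted in the length. Median fold enrichment changed hardly at all, at 11.57, 11.2 and 11.03 over the same 3 regions, so the difference was in a small number of very strong peaks.

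Chromosome 9 was not the only place with such peaks. Of 310 windows of 10 Mb, 219 held no peak with a fold enrichment of 100 or more. The highest counts were 16 of 633 peaks at 10 to 20 Mb of chromosome 9 and 13 of 657 at 0 to 10 Mb, followed by 11 of 611 at 110 to 120 Mb of chromosome 8 and 10 each in the 3 windows at 90 to 100, 100 to 110 and 120 to 130 Mb of that chromosome. Chromosome 8 as a whole held 51 of the 242 peaks this strong, and chromosome 9 held 35. Single strong peaks also lay in genes, such as MTSS1, a regulator of actin and membrane shape, with 165.96. The files hold no measure of DNA copy number, and its part in these counts was not tested.

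Along the chromosomes the ChIRP map was more even than any mark. Chromosome 20 had the most peaks, 58.17 per Mb, and chromosome 13 the fewest, 31.5 per Mb, a ratio of 1.85. The same ratio was 3.14 for H2AZ, 3.75 for H3K27ac, 4.31 for H3K36me3 and 4.42 for H3K9ac, and all 4 marks were densest on chromosome 19, the most gene-rich, where ChIRP had 45.19 per Mb and chromosome 19 had rank 7. The coefficient of variation over the 23 chromosomes was 13.5% for ChIRP and 29.1 to 39.1% for the marks. Counted per 1 Mb bin that held a peak of some list, the ratio for ChIRP was 1.65, with chromosome 4 lowest.

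**Figure D3:**
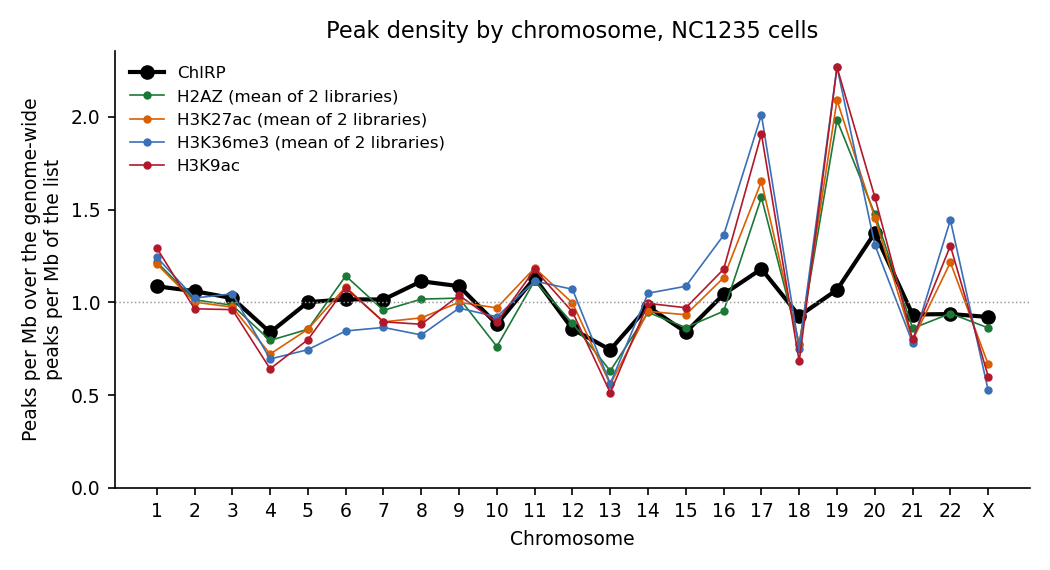
Peaks per Mb of chromosomes 1 to 22 and X (x axis) divided by the list's genome-wide peaks per Mb (y axis; dotted line at 1), for ChIRP and for each mark in NC1235 cells. The ChIRP line runs flattest, with its highest point on chromosome 20 (58.17 per Mb) and its lowest on 13 (31.5 per Mb), while each mark peaks on chromosome 19.

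Chromosomes rich in ChIRP peaks were nonetheless those rich in marks. Over the 23 chromosomes the rank correlation of ChIRP peaks per Mb was 0.88 with H2AZ, 0.706 with H3K27ac, 0.683 with H3K9ac, 0.538 with H3K36me3 and 0.507 with protein-coding genes. Over 2895 bins of 1 Mb it was 0.512 and 0.509 with the H2AZ libraries, 0.481 and 0.473 with H3K27ac, 0.376 and 0.39 with H3K36me3 and 0.516 with H3K9ac. These are descriptions of 1 library, over chromosomes and bins that share the same mappable sequence and the same cells' DNA.

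Of all 3043 bins, 149 had no ChIRP peak, and 148 of these had no peak of any NC1235 list. Of the 2763 bins with a peak of some mark list, 2762 also had a ChIRP peak, and 132 further bins had ChIRP peaks and no mark peak. Over the 2895 bins with a peak of some list, ChIRP included, the median was 43 ChIRP peaks, with the 5th and 95th percentiles at 20 and 72. Peaks were also spaced more evenly: the median gap between neighbours was 14054.5 bp against a mean of 23040 bp, a ratio of 0.61, and in the mark lists that ratio was 0.0673 to 0.346. Of ChIRP gaps, 1.761% were over 100 kb, against 5.087 to 15.51% in the mark lists. This share also depends on the number of peaks, 128273 for ChIRP and 44836 to 71041 in the mark lists. By itself it does not show evenness.

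The densest bins clustered in a few places. The bin at 69 to 70 Mb of chromosome 11, which holds the cyclin D1 gene CCND1, had 142 ChIRP peaks. On chromosome 20 the bin at 61 to 62 Mb had 130 and the one at 57 to 58 Mb had 127. On chromosome 5 the bin at 1 to 2 Mb, with the telomerase gene TERT, had 126. The bin with MYC, at 127 to 128 Mb of chromosome 8, had 105, and that with ERBB2, at 39 to 40 Mb of chromosome 17, had 99. In all, 11 bins had 100 ChIRP peaks or more. DNA copy number is not in the files, and its part in these bin counts was not tested. Some of these bins were rich in marks and others were not: the CCND1 bin had 36 and 39 H3K27ac peaks, while the chromosome 20 bin with 130 ChIRP peaks, which overlaps CDH4 and TAF4, had 1 in each H3K27ac library.

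Most ChIRP peaks lay outside all 4 marks, as did 93.41% of the bases of the genome. Of the 128273 peaks, 114183 (89.02%, 88.84 to 89.19) overlapped no mark peak and 14090 (10.98%, 10.81 to 11.16) overlapped at least 1 mark, counting an H2AZ, H3K27ac or H3K36me3 peak only where both NC1235 libraries had it and H3K9ac from its 1 library. By library, 3.05% and 2.55% of ChIRP peaks overlapped H2AZ (2.804 ± 0.354, SD, n = 2), 3.95% and 3.96% overlapped H3K27ac, 7.10% and 6.07% overlapped H3K36me3 (6.584 ± 0.733, SD, n = 2), and 4.53% overlapped H3K9ac. The shares were highest for both H3K36me3 libraries and lowest for both H2AZ libraries. Seen from the marks, between 6.93% and 11.4% of mark peaks had a ChIRP peak on them.

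These shares have to be read against how much of the genome each mark covered, between 1.25% and 4.76% in the single libraries. The genome here is the full chromosome length, in which 148 of 3043 bins of 1 Mb held no peak of any NC1235 list. Counting such stretches raises each ratio of a mark to the genome, by an amount that was not measured. ChIRP midpoints fell inside H2AZ peaks 1.43 and 1.41 times as often as the covered share of the genome, inside H3K27ac peaks 1.41 and 1.40 times, inside H3K36me3 peaks 1.30 and 1.31 times and inside H3K9ac peaks 1.44 times. The excess was thus of one size for promoter and enhancer marks and a little smaller for the gene-body mark.

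The genome was then divided into 16 states by which marks covered each base. ChIRP peaks covered 2.316% of the bases under any mark and 1.70% of the whole genome, a ratio of 1.36, and the ratio was above 1 on 23 of 23 chromosomes, from 1.13 on chromosome 2 to 1.76 on chromosome 21. Outside all marks the ratio was 0.974. The most frequent combination under ChIRP peaks was H3K36me3 alone, with 6866 peaks (5.353%, 5.23 to 5.477), in which ChIRP cover was 1.32 times that of the genome. Peaks with H3K27ac and H3K9ac together numbered 1868, with a ratio of 1.49, and those that also had H2AZ numbered 1747, with 1.38. H3K9ac alone was under 1303 peaks with 1.43, and H3K27ac alone under 760 with 1.28.

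**Figure D4:**
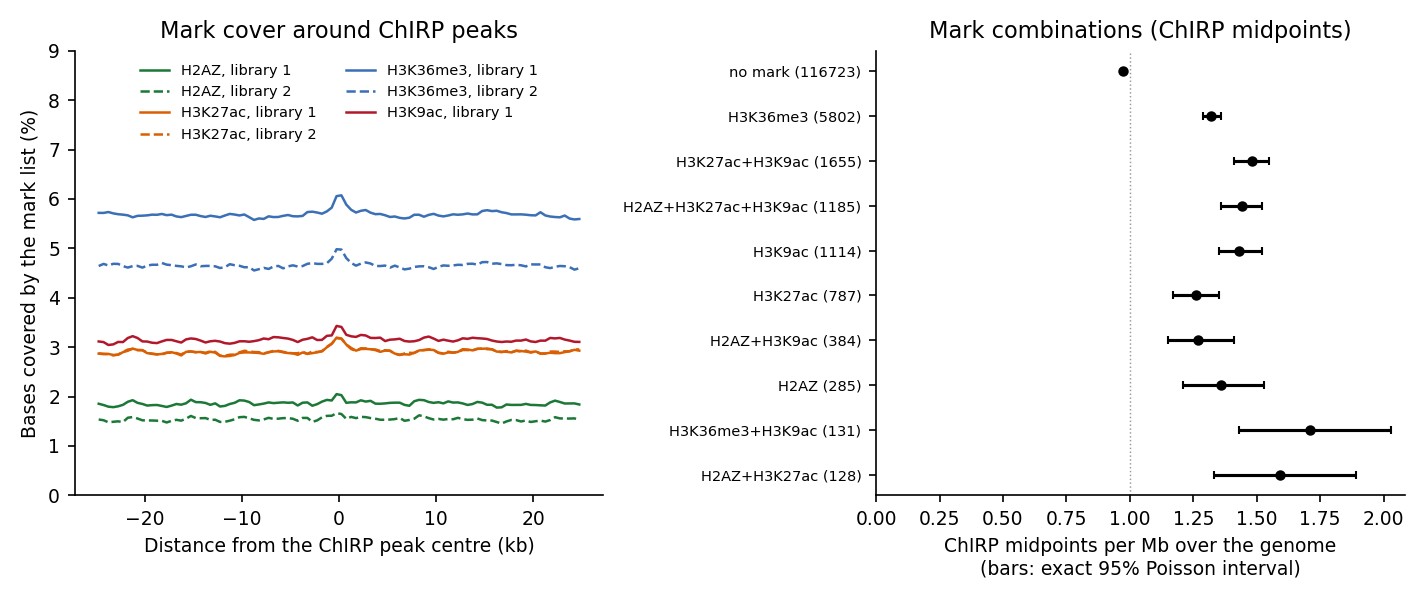
Left, bases covered by each NC1235 mark library (y axis, percent) by distance from the ChIRP peak centre (x axis, kb); right, ChIRP midpoints per Mb in each combination of marks over those of the genome (x axis), with the number of midpoints in brackets and exact 95% Poisson intervals. Cover is 1.07 to 1.10 times higher at the centre than at 20 to 25 kb, and the marked combinations plotted lie above 1, with 1.32 for H3K36me3 alone and 0.974 for no mark.

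Rarer combinations had the highest ratios among those with over 100 peaks: 1.64 for H3K36me3 with H3K9ac (209 peaks), 1.63 for H2AZ with H3K27ac (179 peaks) and 1.60 for H3K27ac, H3K36me3 and H3K9ac together (134 peaks). Their counting intervals were wide, running from 1.43 to 2.03 by midpoints for H3K36me3 with H3K9ac. Of the states with over 1000 peaks, H3K27ac with H3K9ac was highest by midpoints too, at 1.48 (1.41 to 1.55), against 1.32 (1.29 to 1.36) for H3K36me3 alone, and these intervals do not overlap.

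Most of the excess over the genome extended far beyond the peaks. Within 500 bp of a ChIRP centre, H2AZ replicate 1 covered 2.038% of bases, and at 20 to 25 kb it still covered 1.851%, against 1.503% of the genome. For H3K36me3 replicate 1 the values were 6.065%, 5.664% and 4.755%. Over the 7 mark libraries, cover at the centre was 1.07 to 1.10 times that at 20 to 25 kb, and 1.28 to 1.39 times that of the genome. ChIRP peaks thus lay in regions rich in marks, with a small further rise at the peaks themselves.

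The share of marked peaks differed little with peak strength. With ChIRP peaks sorted by fold enrichment into 10 equal classes, between 8.37% and 9.46% had their midpoint under any mark, with 8.93% in the weakest class and 9.46%, the highest of the 10, in the strongest. The difference between classes was not tested. Sorted by width, the range was 8.51% to 9.32%.

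By annotation, 46.74% of ChIRP midpoints lay in protein-coding genes, 1.12 times the share of the genome in them. Another 12.61% lay in lncRNA genes alone (1.05 times) and 40.65% lay in neither (0.876 times). These ratios, and the genome-wide density used below, are over the full chromosome length, with stretches that held no peak counted in. The gene-body mark H3K36me3 had 94.4% and 94.99% of its midpoints in protein-coding genes. H3K27ac had 55.25% and 54.85% there, and H2AZ 41.27% and 42.47%, so the ChIRP share stood between those of H2AZ and H3K27ac.

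Gene by gene, density was measured as ChIRP midpoints per kb of gene body in 22765 protein-coding and lncRNA genes of at least 10 kb, and a gene was counted as dense at 2 times the genome-wide 0.0423 per kb or more. The median gene had 0.0436 per kb, and 5373 genes (23.6%) had no midpoint. Dense genes numbered 4075 (17.9% of those measured), with 2534 (17.8%) among the protein-coding and 1541 (18.1%) among the lncRNA genes. The share of dense genes went down with gene length, at 29.4% of protein-coding genes of 10 to 20 kb and 1.27% of those of 500 kb or more. Short genes reach the threshold with 1 or 2 midpoints, so the genes below were required to have at least 5.

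TRIM52, which codes for a RING-type ubiquitin ligase, had the highest density among protein-coding genes, 0.414 per kb from 5 midpoints (0.134 to 0.966). TYRO3, a receptor tyrosine kinase of the TAM family, followed with 0.41 per kb from 10 midpoints, and had 8.29 times the density of the 1 Mb on either side of it, the highest of the 15. ANAPC2, a subunit of the anaphase-promoting complex, had 0.363, and ARID5A, an RNA-binding protein, 0.315. GIT1, a scaffold of focal adhesions, had 0.309 and DEGS2, a sphingolipid hydroxylase, 0.305 from 7 midpoints. CCT5, a subunit of the chaperonin that folds actin and tubulin, had 0.303. These genes have no common function in these descriptions, and neighbours in the order do not differ beyond their counting intervals.

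The next genes were PGAP3 (0.295), which remodels GPI anchors and neighbours ERBB2, and RAE1 (0.286 from 8 midpoints), an mRNA export factor in the dense stretch of chromosome 20. ANGPTL2 (0.283 from 10 midpoints) codes for a secreted angiopoietin-like protein, DVL3 (0.274) for a Wnt signal transducer, RASGRP2 (0.27) for a Rap1 activator of platelets and SDCBP2 (0.26) for syntenin-2. GPR179 (0.258), a receptor of the retina, and MUC17 (0.258 from 10 midpoints), a membrane mucin of the gut, closed the list of 15. All 15 had 6.09 to 9.78 times the genome-wide density and 2.86 to 8.29 times that of their 1 Mb flanks, and 6 of them lay in a 1 Mb bin with 80 ChIRP peaks or more. H3K36me3 covered over 20% of 7 of these genes, among them RAE1 (94.6%) and CCT5 (83.9%), and none of 7 others. ANGPTL2 and MUC17 had no cover by any of the 4 marks.

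Among lncRNA genes, CSMD2-AS1 was densest with 0.303 per kb, followed by LOC124902068 (0.285), GCSIR (0.278), LOC101927847 (0.277) and LOC124902464 (0.238). LOC105369370, in the CCND1 bin of chromosome 11, had 0.226 from 8 midpoints, but only 2.15 times the density of its flanks, and LINC01854 (0.221 from 7) and LOC105375964 (0.22) completed the 8. LINC01235, with 0.12 per kb, had 2.84 times the genome-wide density and ranked 1638 of the 22765 genes. By bases, ChIRP peaks covered 13.5% of the gene, 7.96 times the share of the genome, since its 2663 bp peak counts as 1 midpoint. Its density was 1.74 times that of its flanks, which had 0.069 per kb.

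Among the 1396 protein-coding genes of 200 kb or more, where counts are larger, the median density was 0.0441 per kb. The highest were ANK1, which codes for the ankyrin of red cells, with 0.136 from 33 midpoints, SLC30A8, a zinc transporter of pancreatic beta cells, with 0.132 from 30, and PHACTR3, a regulator of protein phosphatase 1 and actin, with 0.13 from 35. All 3 lay in dense bins, and their density was 1.18 to 1.77 times that of their flanks. No midpoint was found in 7 of these genes, of which RGPD2, SRGAP2C and ZEB1 are named only because ties were ordered by symbol. RGPD2 and SRGAP2C belong to families of near-identical gene copies, between which reads may be divided or lost, so their counts are uncertain. ZEB1, a repressor of epithelial genes, is 211.4 kb long.

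The 20 gene lists mostly lay near the genome-wide density. Genes of the 17q12 amplicon, the segment around ERBB2 that is amplified in HER2-positive tumours, were highest at 0.126 per kb pooled (0.0925 to 0.167). Of its 6 genes of at least 10 kb, 4 were dense, against 17.9% of all genes. The part of DNA copy number in this density was not tested. ERBB2 itself had 10 midpoints in 40.56 kb, 0.247 per kb (0.118 to 0.453), PGAP3 had 0.295 and STARD3, a cholesterol transporter, 0.185, while MED1, a Mediator subunit, had 1 midpoint in 46.98 kb (0.0213 per kb).

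**Figure D5:**
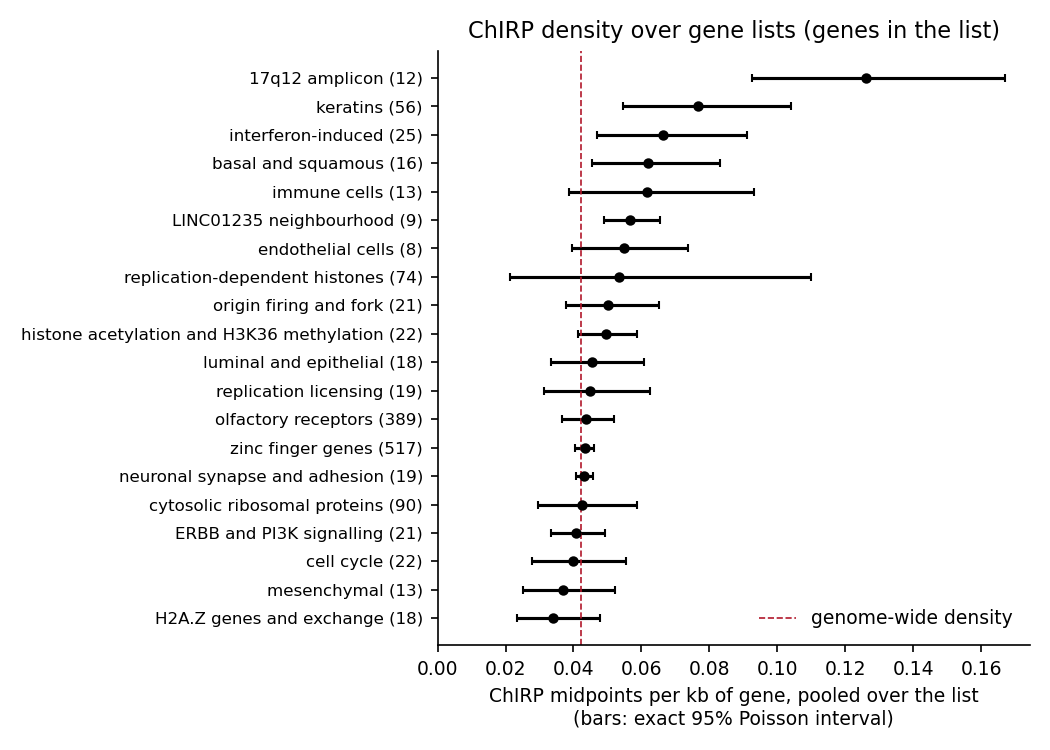
ChIRP midpoints per kb of gene (x axis), pooled over the genes of each list (rows, number of genes in brackets), with exact 95% Poisson intervals as bars and the genome-wide density as a dashed line. The 17q12 amplicon stands highest at 0.126, and the intervals of 15 lists take in 0.0423.

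Keratin genes, which code for the intermediate filaments of epithelia, followed at 0.0765 per kb (0.0547 to 0.104), with KRT78 (0.179) and KRT80 (0.174) highest and KRT73 at 0. Interferon-induced genes had 0.0663 (0.0469 to 0.091), with IFIT1 (0.216) and SAMD9L (0.164), both antiviral effectors, at the top, and IFIT3 without a midpoint. Basal and squamous genes had 0.062 (0.0453 to 0.083), with the desmosomal cadherin DSG3 highest at 0.129. The 9 genes around LINC01235 had 0.0567 (0.0489 to 0.0655), from 0.0487 for PTPRD, a receptor phosphatase with 112 midpoints, to 0.0978 for FREM1 among those other than LINC01235 that were at least 10 kb long. In these lists the interval lay above 0.0423 throughout. Density also differed with gene length, and the lists were not matched for it. Pooled over all protein-coding genes it was 0.0588 at 10 to 20 kb and 0.0516 at 20 to 50 kb. The keratin, interferon-induced and basal and squamous intervals take in 0.0588. The amplicon, keratin and LINC01235 lists are made of neighbouring genes that share their stretch of chromosome, so their genes are not independent of each other.

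Lists tied to replication did not stand apart. Licensing genes, which load the replicative helicase at origins, had 0.0449 per kb (0.0313 to 0.0625), with 3 of 15 genes dense. ORC1, a subunit of the origin recognition complex, had 0.109 and MCM3, a subunit of the helicase, 0.0965 from 2 midpoints, and ORC2 had none. MCM3 was no longer dense with ChIRP peaks of −log10 q of at least 5, which left it none, or by percent of the gene covered, at 1.28 times the genome. Origin firing and fork genes had 0.0501 (0.0379 to 0.0651), with GINS4 at 0.19 and PCNA, the sliding clamp, at 0.171, and 5 of 19 dense. Genes for H2A.Z and its exchange were lowest at 0.0341 (0.0235 to 0.0479), with 1 of 14 dense. These shares, from 7.14% to 26.3%, stand beside the 17.9% of all genes.

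Several further lists, of this and of other tissues, had intervals that took in the genome-wide 0.0423 per kb. Neuronal synapse and adhesion genes, long genes with 1105 midpoints in all, had 0.0431 per kb (0.0406 to 0.0457), and 0 of 19 were dense, where 4.62% of all protein-coding genes of 200 to 500 kb and 1.27% of longer ones were. Olfactory receptor genes had 0.0437 and zinc finger genes 0.0433. Luminal and epithelial genes had 0.0455 (0.0333 to 0.0607), and mesenchymal genes 0.0369 (0.0252 to 0.0521). Over 4335 genes of at least 100 kb, the rank correlation of ChIRP density with the share of the gene covered by a mark was 0.224 for H2AZ, 0.172 for H3K27ac, 0.0367 for H3K36me3 and 0.193 for H3K9ac, as descriptions across genes that are not independent of each other.

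The mark lists of the Si1235 arm were laid on the same ChIRP map, to ask whether marks at ChIRP sites differed between the arms. H2AZ peaks lay under 2.946% and 2.393% of ChIRP peaks in Si1235, against 3.054% and 2.553% in NC1235, a difference of −0.134 percentage points (exact permutation test, two-sided, p = 0.667). The 2 arms overlapped. H3K27ac lay under 3.949% and 3.761% in Si1235, against 3.95% and 3.96% in NC1235, a difference of −0.101 (exact p = 0.333) and the arms did not overlap, with 3.949% and 3.95% as the nearest values. Background could be solved from the weakest H3K27ac peaks in the Si1235 lists only. Whether the H3K27ac lists of the 2 arms were called alike is not known, here and for the regions below. The length covered by H3K27ac peaks was 70.1 and 65.63 Mb in Si1235, against 69.46 and 69.87 Mb in NC1235. Per 100 Mb covered, the H3K27ac shares were 5.63% and 5.73% in Si1235, against 5.69% and 5.67% in NC1235, and the arms overlapped. Per 100 Mb the H2AZ shares were 6.58% and 6.69% in Si1235, against 6.71% and 6.76% in NC1235, and there the arms did not overlap. H3K36me3 lay under 7.123% and 6.513% in Si1235, against 7.102% and 6.065% in NC1235, a difference of 0.235 (exact p = 0.667), with overlapping arms. Adjusted over the 3 marks each exact p was 0.667, and 2 libraries against 2 cannot give less than 0.333. H3K9ac lay under 4.546% in Si1235 and 4.533% in NC1235, with 1 library each and no test.

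Regions that a mark lost or gained between the arms were then described by their ChIRP density. Gained regions had a peak in each Si1235 library and in no NC1235 library, lost regions the reverse, and kept regions had one in all 4. ChIRP midpoints per kb were 0.0782 (0.0647 to 0.0938) in lost H2AZ regions, 0.0818 (0.0637 to 0.103) in gained ones and 0.0587 (0.0565 to 0.061) in kept ones. For H3K27ac they were 0.0696 (0.058 to 0.0829) in lost, 0.0667 (0.0526 to 0.0835) in gained and 0.0589 (0.0572 to 0.0606) in kept regions. For H3K36me3 they were 0.0403 (0.0313 to 0.0509) in lost, 0.0579 (0.0492 to 0.0677) in gained and 0.0544 (0.0532 to 0.0556) in kept regions, so that here the lost regions lay below the kept ones. Lost and gained H2AZ regions did not differ from each other beyond their counting intervals, and both lay above kept ones, while the H3K27ac intervals of lost and gained regions took in the kept value. Lost and gained regions were also shorter, with medians of 486 and 485 bp against 1268 bp for kept H2AZ regions, and the part of width in these densities was not tested.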

How the data were processed

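Peak lists of 15 libraries were used, 1 per library and none pooled. Per the submitters' processing notes, the build was hg38 and the tools included Bowtie2 2.2.9 and MACS2, with HTSeq 2.0.3 and DESeq2 1.22.2 listed without a role; the control and settings of peak calling are not given in the sources used here. In each list the authors deposited a fold enrichment, a linear ratio at the summit, with the p-value and the q-value as −log10 values. Columns 1 to 3 gave the positions. Chromosomes 1 to 22 and X were used, overlap meant at least 1 bp, and a mark peak counted where both NC1235 libraries had it (H3K9ac has 1). Depth is unknown, and the background was solved from the 1500 weakest peaks per list within 0.0001 in −log10 p, as the 5th percentile.

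Gene density was midpoints per kb over RefSeq GRCh38.p14 gene bodies of at least 10 kb, without rows on alternate loci. The rule for named genes took LINC01235, the 15 protein-coding and 8 lncRNA genes with the highest density and at least 5 midpoints (of overlapping genes, the densest), the 2 highest and the lowest of each of 20 gene lists, and the 3 highest and 3 lowest protein-coding genes of at least 200 kb. Some of these are not reported here, and other genes were named after their values were seen, as landmarks of bins, strong peaks and lists. Members, lists and tests were chosen with earlier results of these data known. The word search and its settings (9 bases, at least 7 windows, 5 times or more on the other chromosomes) were chosen after seeing the data. Windows on chromosome 8 were not considered for printing. Si1235 and NC1235 libraries were compared by exact permutation, adjusted by Benjamini-Hochberg over the 3 marks. Scripts (Python 3.11.15, numpy 2.4.6, pandas 2.3.3, scipy 1.17.1, matplotlib 3.10.9) were tested on simulated data.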

Additional observations from a re-analysis of the deposited data

Results flagged for a closer look

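The ChIRP list also held 76 peaks on unplaced or unlocalised sequences and 2 on the mitochondrial genome, outside the chromosomes described above. The mark lists of both arms held between 4 and 10 on such sequences and 0 on the mitochondrial genome. As a share of the list this was 0.0608% for ChIRP, against 0.00492% to 0.0205% in the 14 mark lists. The series includes no control pull-down, so the level without the probes is unknown.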

How the results depend on the processing

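Of 400 recomputed values, 353 kept their direction and size or call, and 305 of these were for single genes or mark combinations. Among the main comparisons, 48 values stayed the same, 35 moved in size and 5 reversed. The 48 include the arm difference with replicate number as a block for each of 3 marks, which is unchanged by construction. The shares of ChIRP peaks under a mark moved with the overlap rule. With at least 50% of the ChIRP peak covered they were 1.53% for H2AZ, 2.98% for H3K27ac, 4.69% for H3K36me3, 3.51% for H3K9ac, 8.97% for any mark and 91.0% for none. With the midpoint inside the mark they were 1.55%, 2.99%, 4.69%, 3.54%, 9.0% and 91.0% in the same order. With a mark peak in either library they were 3.33% for H2AZ, 4.23% for H3K27ac, 7.52% for H3K36me3, 13.5% for any mark and 86.5% for none; H3K9ac has 1 library and no such value. With mark peaks of −log10 q of at least 5, H3K27ac was 3.58%, H3K9ac 4.02%, any mark 9.89% and none 90.1%, and with such ChIRP peaks H3K27ac was 3.71%. Leaving out each mark library in turn put H2AZ between 2.55% and 3.05%, H3K27ac between 3.95% and 3.96%, H3K36me3 between 6.07% and 7.1%, and gave 11.1% to 12.4% for any mark and 87.6% to 88.9% for none, since 1 library asks less than both.

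The cover ratio under any mark was 1.33 with either library, against 1.36, and that of H3K36me3 alone was 1.28, against 1.32. The ratio of the highest to the lowest chromosome was 1.65 per occupied bin, against 1.85. Dense genes numbered 2293 at a minimum length of 20 kb, against 4075. Fewer genes were measured, and those left out were more often dense. Of genes of 10 to 20 kb, 29.4% of the protein-coding and 24.8% of the lncRNA genes were dense, against 17.9% of all genes from 10 kb. Of 86 named genes, 4 changed side under some alternative.

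The differences between arms were not stable. The H2AZ difference, −0.134 points, ran from −0.41 to 0.142 with 1 library left out; it was 0.117 without NC1235 replicate 1 and 0.142 without Si1235 replicate 2. The H3K27ac difference ran from −0.195 to −0.00663. The H3K36me3 difference, 0.235 points, ran from −0.284 to 0.753; it was −0.284 without NC1235 replicate 2, −0.0702 without Si1235 replicate 1, and −0.0261 with the same number of peaks per library. The cause was not tested. Within replicate numbers as a block, the differences stay −0.134, −0.101 and 0.235 by construction. Each had an exact sign-flip p of 0.5, the smallest that 2 pairs allow. Deviations of same-numbered libraries over 23 chromosomes correlated at 0.518, 0.539 and 0.834, which with 2 pairs does not pair them. Words of 8 bases at summits, a length added after seeing the data, stood at 0.394 to 5.01 times their share of all windows on the even-numbered chromosomes and X, with AGCACACC at 5.01 and AGGCTCTG at 3.25 but CCCTTTAC at 1.02, CCGTTGCC at 1.79 and GACCTCTC at 0.394. Of words of 10 bases, CAGGCTCTGG stood at 12.8, from 13 windows, but CCCGCCAGGA at 1.62 and CTGACCTCTC at 3.06, each from 1 window.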

Other observations

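The remaining gene lists had intervals that took in the genome-wide 0.0423 midpoints per kb, with pooled values from 0.0398 to 0.0616. Histone acetylation and H3K36 methylation genes had 0.0495 (0.0413 to 0.0588), with 2 of 21 genes (9.52%) dense against 17.9% of all genes, and the bromodomain readers BRD2 (0.155) and BRD3 (0.105) were highest. ERBB and PI3K signalling genes had 0.0407 (0.0334 to 0.0492), with AKT1 at 0.189 from 5 midpoints. Cell cycle genes had 0.0398 (0.0277 to 0.0554), with the cyclin genes CCNE1 (0.162) and CCND1 (0.15) highest, each from 2 midpoints, and PLK1 at 0. CCND1 itself thus rested on 2 midpoints although its bin was the densest of the genome.

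Immune cell genes had 0.0616 (0.0386 to 0.0932), endothelial genes 0.0548 (0.0396 to 0.0738), cytosolic ribosomal protein genes 0.0424 (0.0297 to 0.0587) and replication-dependent histone genes 0.0533 (0.0214 to 0.11, from 7 midpoints). The endothelial receptor FLT1 had 17 midpoints in 194.8 kb (0.0873 per kb), and it was among 2 of 8 endothelial genes (25.0%) that were dense, against 17.9% of all genes. At promoters, the strongest ChIRP summits included those of the sodium-coupled amino acid transporter gene SLC38A7 (fold enrichment 83.6) and the gap junction gene GJA5 (82.1). The promoter windows of both touched H2AZ, H3K27ac and H3K9ac peaks. The summit at the aquaporin gene AQP9 (79.9) was also among the strongest, in a window that touched no mark peak. The strongest of all was at LOC124905189 on chromosome X (107.53), where the window held none of the 3 words and touched no mark peak.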
